A study of Mus musculus with 3 samples.

Results

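The cells described here are small intestinal epithelial barcodes that carry transcripts of crypt stem cell or division genes. A barcode was a member if it had 800 to 50000 UMIs (unique transcript counts), at most 40% mitochondrial UMIs, at least 1 UMI of Epcam, the epithelial adhesion molecule, and none of Ptprc, the leukocyte antigen CD45. It also needed at least 4 UMIs summed over 5 genes. Lgr5, Ascl2 and Smoc2 mark crypt base stem cells, and Mki67 and Top2a mark dividing cells. Of 27235 barcodes in 3 libraries, 219 were members, with 89 in the duodenum library, 41 in jejunum and 89 in ileum. The members were thus chosen by measured counts of the 7 genes named above. They were set against 12852 Epcam-positive, Ptprc-negative barcodes within the same limits that held no UMI of the 5 genes, called marker-free here, with 3758 of them in the duodenum library, 3842 in that of jejunum and 5252 in that of ileum. A further 569 such barcodes held 1 to 3 UMIs of the 5 genes and belong to neither group.

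The libraries were made from loosened epithelium of WT C57BL/6N mice, all male and 12 weeks old, and the labels name no treatment. Cells of 3 mice were pooled for each segment, so that animals cannot be told apart, and propidium iodide-negative (live) cells were sorted before 3′ counting with the 10x Genomics v3 kit. The study built mouse lines that target mature enteroendocrine cells through the villin gene Vil1, and these libraries show its transcripts across epithelial cells. With 1 library per segment, segments were described but not tested.

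Intestinal epithelium is renewed from stem cells at the base of the crypts, which divide under Wnt and Notch signals and sit between Paneth cells. Their daughters pass through rapid divisions in the crypt, known as transit amplification, before they leave the cell cycle and move up the villus as enterocytes, goblet, enteroendocrine or tuft cells. BMP signals and cell cycle inhibitors increase along that path.

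Members made up 2.22% of the Epcam-positive, Ptprc-negative barcodes of the duodenum (exact 95% binomial interval 1.79 to 2.73), 1.02% of those of the jejunum (0.736 to 1.39) and 1.58% of those of the ileum (1.27 to 1.94). The intervals cover counting error only, and that of the jejunum overlapped the interval of the ileum but not that of the duodenum. The order depended on the mitochondrial limit. At 20% the shares were 6.97% in duodenum, 2.98% in jejunum and 1.52% in ileum. Members had more UMIs, with a median of 33593, 23553 and 24302 in duodenum, jejunum and ileum, against 12560, 12074 and 6290 in marker-free barcodes. Their median mitochondrial share was 11.6%, 14.9% and 9.26%, against 28.0%, 28.2% and 12.4%. The share of barcodes that were members grew with depth, from 0.463% of those with 800 to 5000 UMIs to 16.0% of those with 30000 to 50000. Membership needs at least 4 UMIs of the 5 genes and marker-free status needs none, so the rule itself favours deep barcodes as members. How much of the difference in depth lies in the cells was not tested. Above the upper limit, 83 of 130 otherwise fitting barcodes (63.8%) also had at least 4 UMIs of the 5 genes. No doublet caller was run, and what part droplets with 2 cells have in the deepest barcodes was not tested. Between libraries 70 barcodes were shared, 1 of them a member.

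The 5 genes chose the members, so their levels are given as a description. Positions are on GRCm38 with GENCODE M21. Levels are UMIs of the gene per 10000 UMIs of the summed barcodes, with exact 95% Poisson intervals. Lgr5 (ENSMUSG00000020140, chromosome 10, 115450311 to 115587780), the R-spondin receptor of the stem cells, stood at 0.287 (0.227 to 0.358) in duodenum, 0.252 (0.165 to 0.369) in jejunum and 0.786 (0.672 to 0.914) in ileum. Its ileal interval lay above both others. Ascl2 (chromosome 7, 142966829 to 142969264), a transcription factor of stem cell fate, stood at 0.451, 0.233 and 0.489 in the same order. Smoc2 (chromosome 17, 14279506 to 14404790), a secreted calcium-binding protein, had levels of 1.15, 0.978 and 1.08. Mki67 (chromosome 7, 135689784 to 135716361), which codes for the division antigen Ki-67, had 2.33, 2.00 and 2.02, and Top2a (chromosome 11, 98992943 to 99024189), a DNA topoisomerase, 2.97, 2.80 and 2.88. Apart from Lgr5, and from Ascl2 in the jejunum, the genes differed little between segments.

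Most members carried both kinds of marker. Of the 219 members, 149 had UMIs of at least 1 stem cell gene and at least 1 division gene, 26 had stem cell genes only and 44 had division genes only. Smoc2 was found in 162 members, Mki67 in 171, Top2a in 158, Lgr5 in 88 and Ascl2 in 82. Lgr5 and Mki67 occurred together in 54 members. The summed count was exactly 4 in 3, 8 and 12 members of duodenum, jejunum and ileum, while 16, 3 and 9 barcodes just outside had 3. A sum of 12 or more was held by 56, 21 and 47 members.

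To find how members differ from marker-free barcodes in genes the rule did not use, UMIs were summed per library and group and compared with edgeR's quasi-likelihood test, with the library as a block. The 3 libraries served as replicates, so the test asks for a difference shared by the segments. Genes that go with the 5 in single cells were bound to follow them. Of 12556 genes tested, 3470 (27.6%) were higher and 4340 (34.6%) lower in members at an adjusted p of at most 0.05. This split rests on scaling. Higher genes were 44.4% of the calls with TMM scaling and 67.4% without it, when 5188 were higher and 2508 lower, and the median log2 fold change over all genes shifted by 0.69. A further setting left out barcodes with any UMI of the T cell, B and plasma cell, myeloid, or mesenchymal and endothelial lists. There 1619 genes were higher, but only 8, 3 and 15 members of duodenum, jejunum and ileum were left.

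Stem cell genes outside the rule were high in the members of every segment. Of 20 genes on the stem cell list, 17 rose, 1 fell and 2 were not called, with a median log2 fold change of 3.81 against -0.18 over all genes tested. Olfm4 (ENSMUSG00000022026, chromosome 14, 79984081 to 80023139), a secreted glycoprotein of crypt base cells, stood at 22.1 UMIs per 10000 in duodenum, 27.6 in jejunum and 24.4 in ileum. In marker-free barcodes its level was 0.0228, 0.0299 and 0.0616. The log2 fold change was 8.75 ± 0.42 (SE, adjusted p = 7.66e-06), the largest among the genes that met the level and direction criteria for naming. Slc12a2, a sodium, potassium and chloride cotransporter of crypt cells, had 4.56, 3.83 and 4.91 in members against 0.0583, 0.0360 and 0.233, a log2 fold change of 5.10 ± 0.45.

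Further list genes rose by differing amounts. Cdca7, a cell division associated gene, rose by a log2 fold change of 4.87, Igfbp4, a binding protein of insulin-like growth factors, by 5.02, Cdk6, a kinase of the early cell cycle, by 4.32 and Rgmb, a BMP co-receptor, by 2.42. The rise of Lrig1, which restrains growth factor receptors, was 3.29, and that of Aqp4, a water channel, 5.62. Hopx, a homeodomain gene, rose by 1.67 ± 0.45 (adjusted p = 0.0121), with 1.59, 1.29 and 2.02 in members against 0.733, 0.261 and 0.148, and Tert, the catalytic part of telomerase, by 2.11. Bmi1, a Polycomb gene, had 0.113, 0.155 and 0.144 against 0.0717, 0.0396 and 0.0681, and did not pass the test (log2 fold change 0.49, adjusted p = 0.176). Pdgfa, a growth factor, fell by 1.63 on the log2 scale.

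Sequencing depth was then made equal by thinning each barcode to 2000 UMIs. Olfm4 was found in 50.6% of members of the duodenum (exact 95% binomial interval 39.8 to 61.3), 58.5% of the jejunum and 50.6% of the ileum. Before thinning the shares were 66.3%, 78.0% and 59.6%. In marker-free barcodes the thinned shares were 0.648%, 0.710% and 1.51%, and the unthinned ones 2.87%, 2.84% and 4.23%. Olfm4 thus separated the groups at 1 depth, whereas Igkc, an antibody gene that epithelial cells should lack, was found in 12.4%, 17.1% and 5.75% of thinned members and in 16.1%, 16.1% and 11.5% of thinned marker-free barcodes. No member of the duodenum or jejunum was too shallow for thinning, and 2 of the ileum were left out, as were 53, 40 and 280 marker-free barcodes.

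**Figure D1:**
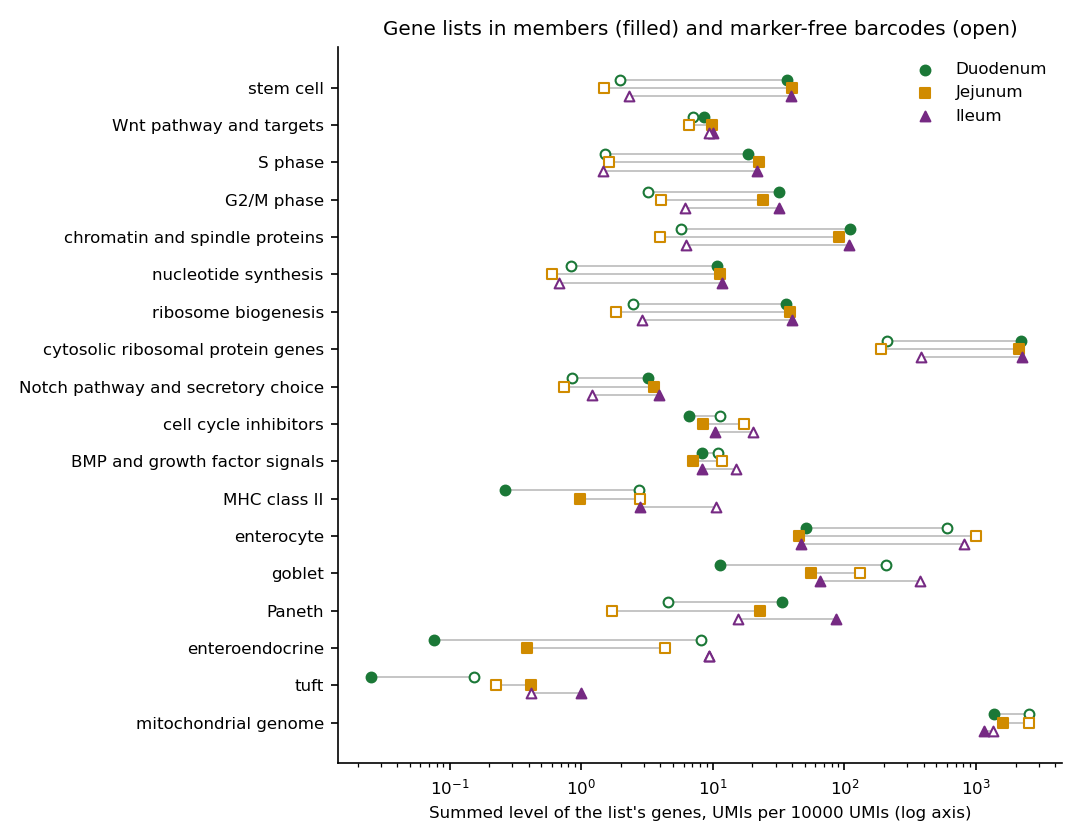
Summed level of each gene list in UMIs per 10000 UMIs (log axis) for members (filled) and marker-free barcodes (open) of each library, joined by a line. The stem cell list stands at 36.7 to 39.7 in members and 1.49 to 2.30 in marker-free barcodes, and the enterocyte list at 45.4 to 51.0 against 601 to 993.

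Most tested genes of the Wnt list rose. Of 21 genes, 19 passed the filter on low counts, of which 11 rose, 4 fell and 4 were not called, against 27.6% higher and 34.6% lower of all genes tested. The target Sp5 was not called. Fzd5, a receptor, rose, and its call was lost without the duodenum (0.49) or the jejunum (0.46). Axin2, a target and inhibitor of the pathway, had 0.575, 0.794 and 0.903 in members of duodenum, jejunum and ileum against 0.0638, 0.129 and 0.254, a log2 fold change of 1.82 ± 0.27 (adjusted p = 0.000622). Larger rises were those of Myc, a growth-promoting transcription factor, at 5.64, Sox9, a crypt transcription factor, at 4.09, the adhesion receptor Cd44 at 3.38 and the positional receptors Ephb2 and Ephb3 at 3.37 and 3.55. The ligases Rnf43 and Znrf3, which remove Wnt receptors, rose by 1.20 and 3.45. Among the lower genes were Tcf7l2, the main nuclear partner of beta-catenin in this tissue, with a log2 fold change of -2.11, Ctnnb1, beta-catenin itself, with -1.16, and Apc, part of its destruction complex, with -1.25. Without scaling factors Ctnnb1 was no longer called. Summed over the list the groups lay close, at 8.63 to 10.0 in members and 6.62 to 9.37 in marker-free barcodes.

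Genes of the cell cycle were high in members, and the G2/M list had the largest median of the lists. All 30 genes of the S phase list, which serve DNA replication, were tested, and 29 rose and 1 fell, with a median log2 fold change of 4.59. Of 33 genes of the G2/M list, which serve mitosis, 32 rose, with a median of 6.51, and Tubb4b, a tubulin also abundant in marker-free barcodes, was not called (-0.07, adjusted p = 0.819). Mcm5 (ENSMUSG00000005410, chromosome 8, 75109569 to 75128439), a subunit of the replicative helicase, had 0.720, 0.765 and 1.00 in members of the 3 segments against 0.00236, 0.00247 and 0.00783. Its log2 fold change was 7.02 ± 0.31 (adjusted p = 7.02e-06). Cdk1 (ENSMUSG00000019942, chromosome 10, 69335146 to 69352938), the kinase that starts mitosis, had 1.17, 0.910 and 1.25 against 0.00295, 0.00228 and 0.0137, a log2 fold change of 7.03 ± 0.45 (adjusted p = 1.34e-05). No library's members overlapped the marker-free values for either gene.

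Other members of these lists showed the range. Mcm3, another helicase subunit, rose by 7.64, Uhrf1, which maintains DNA methylation, by 7.54, Tyms, which makes thymidylate, by 5.00 and Rrm2, a subunit of ribonucleotide reductase, by 4.89. Pcna, the replication clamp, rose by less, at 1.61, with 0.782, 1.08 and 0.684 in members against 0.207, 0.179 and 0.126. The exception was Ccne2, a cyclin of the start of S phase, which was lower by -0.77 ± 0.25 (adjusted p = 0.029). That call was lost without the duodenum or the jejunum, and the log2 fold change was -0.58 and -0.66 then. Among the mitotic genes Ccnb1 rose by 7.64, Ccna2 by 7.38, and Ube2c, which marks cyclins for destruction, by 6.63.

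The promoters of mitotic and replication genes differ in sequence, and a few are shown because the members express both sets. Each runs from 250 bases before to 50 after the RefSeq transcription start (GRCm38.p6), 5′ to 3′ on the strand of the gene. Capitals mark CCAAT (bound by NF-Y), TTTGAA (the CHR element of late cell cycle genes) and TTTNGCGC or TTTCCCGC (forms of the E2F site), searched on both strands, so that CCAAT also appears as ATTGG. Forward and reverse matches of TTTNGCGC can overlap.
Cdk1 (chr10:69352863-69353162, minus strand): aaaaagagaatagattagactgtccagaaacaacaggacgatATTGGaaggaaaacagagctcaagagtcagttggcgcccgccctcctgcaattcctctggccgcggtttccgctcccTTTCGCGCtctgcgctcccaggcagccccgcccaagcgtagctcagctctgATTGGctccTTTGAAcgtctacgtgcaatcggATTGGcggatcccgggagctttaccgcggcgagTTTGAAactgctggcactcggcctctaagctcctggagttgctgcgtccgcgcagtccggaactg
Ccnb2 (chr9:70421505-70421804, minus strand): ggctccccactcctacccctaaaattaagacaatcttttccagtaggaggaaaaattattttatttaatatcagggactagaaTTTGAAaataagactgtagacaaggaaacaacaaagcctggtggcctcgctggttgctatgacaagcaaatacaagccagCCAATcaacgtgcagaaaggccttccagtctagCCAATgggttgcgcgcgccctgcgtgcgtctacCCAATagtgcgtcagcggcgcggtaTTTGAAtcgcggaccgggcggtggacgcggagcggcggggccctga
Cdc20 (chr4:118437294-118437593, minus strand): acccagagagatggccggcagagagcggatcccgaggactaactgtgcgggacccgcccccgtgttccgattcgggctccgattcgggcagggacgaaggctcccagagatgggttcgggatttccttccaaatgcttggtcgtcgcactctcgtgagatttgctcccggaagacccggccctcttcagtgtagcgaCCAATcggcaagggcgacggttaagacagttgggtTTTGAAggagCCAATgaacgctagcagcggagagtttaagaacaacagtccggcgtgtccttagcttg
Mcm5 (chr8:75109259-75109558, plus strand): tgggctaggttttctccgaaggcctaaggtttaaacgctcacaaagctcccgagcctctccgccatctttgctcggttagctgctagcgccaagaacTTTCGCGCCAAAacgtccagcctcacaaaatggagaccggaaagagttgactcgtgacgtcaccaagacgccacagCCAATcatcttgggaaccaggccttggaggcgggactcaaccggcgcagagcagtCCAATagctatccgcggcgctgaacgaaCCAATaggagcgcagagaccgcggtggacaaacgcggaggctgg
Mcm6 (chr1:128359656-128359955, minus strand): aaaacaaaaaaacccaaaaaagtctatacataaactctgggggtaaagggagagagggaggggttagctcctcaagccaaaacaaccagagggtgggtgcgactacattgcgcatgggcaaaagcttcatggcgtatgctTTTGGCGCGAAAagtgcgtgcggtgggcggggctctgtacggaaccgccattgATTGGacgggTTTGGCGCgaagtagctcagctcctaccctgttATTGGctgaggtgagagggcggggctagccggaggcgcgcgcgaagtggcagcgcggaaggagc

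TTTGAA occurs 15 and 71 bases before the start of Cdk1, 18 before that of Cdc20, and 167 before and 4 after that of Ccnb2. None of the E2F forms is in the Ccnb2 or Cdc20 window, and that of Cdk1 holds TTTNGCGC 1 time, 131 bases before the start. The window of Mcm5 holds it 2 times, in overlapping matches 153 and 149 bases before. That of Mcm6 holds it 3 times, 110, 106 and 47 bases before, and the first and second of these overlap. For the G2/M list 30 promoters of 29 genes were in the table, and 70.0% held TTTGAA, against 17.9% of all 32851 promoters and 10.0% of the 30 promoters of the S phase list. CCAAT was in 80.0%, 37.4% and 53.3% of these. Both together stood in 66.7% of the G2/M promoters and in 6.95% of all. Of the S phase promoters, which cover 25 of its 30 genes, 36.7% held at least 1 of the E2F forms, against 2.39% of all and 6.67% of the G2/M ones. The matches describe these windows and are not measured binding.

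Chromatin, nucleotide and ribosome genes rose nearly as whole lists. All 16 chromatin and spindle genes were higher, with a median log2 fold change of 3.57. Ptma, a small acidic protein that binds histones, had 41.6, 33.5 and 38.3 UMIs per 10000 in members of duodenum, jejunum and ileum against 1.21, 0.591 and 1.25, a log2 fold change of 4.58 ± 0.30 (adjusted p = 1.42e-05). Stmn1, which takes microtubules apart, rose by 6.39 and Hmgb2, a DNA-bending protein, by 4.23. In nucleotide synthesis 19 of 20 genes rose, with Impdh2, the guanine nucleotide enzyme, at 4.95 and Tk1, a thymidine kinase, at 5.75, and Prps1, which makes the ribose precursor, was not called (0.40, adjusted p = 0.358).

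All 20 ribosome biogenesis genes rose, by a median of 3.62. Npm1, a nucleolar chaperone, had 11.4, 10.8 and 12.7 in members against 0.593, 0.435 and 0.758, and Ncl, nucleolin, had a log2 fold change of 3.23. Of 85 cytosolic ribosomal protein genes 82 were tested, and all 82 rose, by a median of 2.48. They summed to 2196, 2107 and 2222 of every 10000 UMIs in members and to 209, 189 and 381 in marker-free barcodes. The 13 mitochondrial genes summed to 1373, 1615 and 1142 against 2533, 2535 and 1344. Of these, 7 fell, 4 without the duodenum, 2 without the jejunum and 12 without the ileum. The rule caps the mitochondrial share, and the groups differ in it as given above.

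Most cell cycle inhibitors were lower. Of 10 genes 7 fell and 1 rose, with a median log2 fold change of -1.01 (-0.31 without scaling). Cdkn1a, the inhibitor p21, had 0.374, 0.436 and 0.637 in members against 2.27, 2.69 and 3.43, and fell by 3.25 on the log2 scale (SE 0.21, adjusted p = 1.42e-05). Klf4, a transcription factor of differentiated epithelium, fell by 3.64, from 3.88, 6.30 and 6.46 to 0.360, 1.05 and 0.931. Cdkn2c, the inhibitor p18, went the other way and rose by 2.41.

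Of 14 genes of the Notch pathway and secretory choice 12 were tested, and 5 rose and 3 fell, against 27.6% and 34.6% of all genes tested. Notch1 rose by a log2 fold change of 4.52, with 0.338, 0.475 and 0.447 in members against 0.0217, 0.00742 and 0.00740, and Hes1, the main target that blocks the secretory path, rose by 2.63, with 1.80, 1.40 and 1.71 against 0.134, 0.150 and 0.209. Notch2, Nrarp and Dtx4 rose by 3.18, 1.97 and 2.55. The ligands Dll1 and Dll4 and the goblet factor Spdef were lower, by -1.11, -1.25 and -2.05. Without the duodenum, where Dll1 (-0.74) and Dll4 (-0.96) were not called, 1 gene fell, without the jejunum 4 fell, and without the ileum, where Dll1 (-0.80) was not called, 2. In the jejunum Dll1 was higher in members, at 0.349 against 0.195, and 47.2% of its UMIs there came from 1 member.

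BMP and growth factor genes were mostly lower. Of 14 genes measured 10 fell and 1 rose, against 34.6% lower and 27.6% higher of all genes tested. The median log2 fold change was -1.04, and -0.34 without scaling. Smad7, an inhibitor induced by the pathway, fell by 3.07, the receptor Erbb3 by 2.33 and Id3, a BMP target, by 1.21. Igf1r, the receptor of insulin-like growth factors, rose by 3.39, with 0.233, 0.242 and 0.423 in members against 0.0120, 0.0105 and 0.0355. Bmpr1a, a BMP receptor, was lower by -0.60 with scaling and higher by 0.10 without. Its call was also lost without the duodenum (-0.56) or the jejunum (-0.43).

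Genes of the villus were low in members, but not at 0. All 16 enterocyte genes fell, by a median of 4.75 on the log2 scale. Apoa1, an apolipoprotein of dietary fat transport, had 5.87, 9.50 and 13.6 in members of the 3 segments against 160, 299.8 and 301, a log2 fold change of -5.45 ± 0.51 (adjusted p = 5.89e-05). Vil1, which codes for the microvillus protein villin, had 1.74, 1.61 and 2.15 against 9.45, 12.2 and 12.2, a log2 fold change of -3.32 ± 0.28 (adjusted p = 3.24e-05). At 2000 UMIs a barcode, Apoa1 was still found in 41.6%, 63.4% and 43.7% of members (100%, 100% and 96.6% unthinned) against 97.6%, 98.9% and 97.0% of marker-free barcodes. What part free RNA has in these levels was not tested.

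Antigen presentation genes were low in members, and defence genes were called about as often as genes in general. All 7 genes of MHC class II presentation fell, among them Cd74, the invariant chain, with 0.127, 0.639 and 1.61 against 1.40, 1.63 and 5.97 (log2 fold change -2.88). Of 8 genes of lower villus defence 2 rose and 3 fell, with a median of -0.60 that turned to 0.11 without scaling. The shares over all genes, 27.6% higher and 34.6% lower, are close to these counts. Dmbt1, a scavenger receptor of mucosal surfaces, rose by 3.52 ± 0.30, with 13.3, 7.88 and 2.57 in members against 0.859, 0.221 and 0.217. Reg3b, an antimicrobial lectin, had 5.00, 15.8 and 33.0 against 31.3, 50.6 and 96, a log2 fold change of -2.66.

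Beyond the lists, the naming rule gave 5 higher genes with the largest fold changes. They were the histone genes Hist1h1b (7.54) and Hist1h2ap (6.11), Clca3b (7.46), Pclaf (6.76), a partner of the replication clamp, and Myb (6.13), a transcription factor of immature cells. Clca3b had 3.25, 4.39 and 4.96 in members against 0.00591, 0.00894 and 0.0466. Histone gene copies are near-identical in parts, so reads may be split between them. The lowest genes included the haemoglobin genes Hba-a1 and Hbb-bs, the hormone genes Sst and Nts, the nucleotidase gene Nt5e, and Clca4a. Hbb-bs stood at 0.00364, 0.0194 and 0.0186 in members and at 0.970, 4.60 and 3.04 in marker-free barcodes.

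Markers of other cell types were found in members at low levels per barcode, and a few members held much of some lists. The Paneth list of 9 antimicrobial and granule genes summed to 33.7, 22.9 and 86.7 UMIs per 10000 in members against 4.55, 1.71 and 15.6, and 6 of 9 genes were called higher. These sums came from few barcodes. In the duodenum 1 member held 91.3% of the list's UMIs and 3 held 96.8%, in the jejunum 57.9% and 90.5%, and in the ileum 58.2% and 89.3%. With the 3 top members of each library left out the levels were 1.11, 2.32 and 9.55. At least 10 Paneth UMIs per 10000 were found in 5, 5 and 23 members. Lyz1, the lysozyme of Paneth granules, had 4.99, 3.29 and 9.24 against 0.608, 0.182 and 1.99 (log2 fold change 2.42), was found in 22, 18 and 41 members, and had 89.3%, 67.3% and 55.5% of its UMIs in 1 member. The alpha-defensin genes (Defa24 and others) are near-identical copies, and their single values are uncertain.

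**Figure D2:**
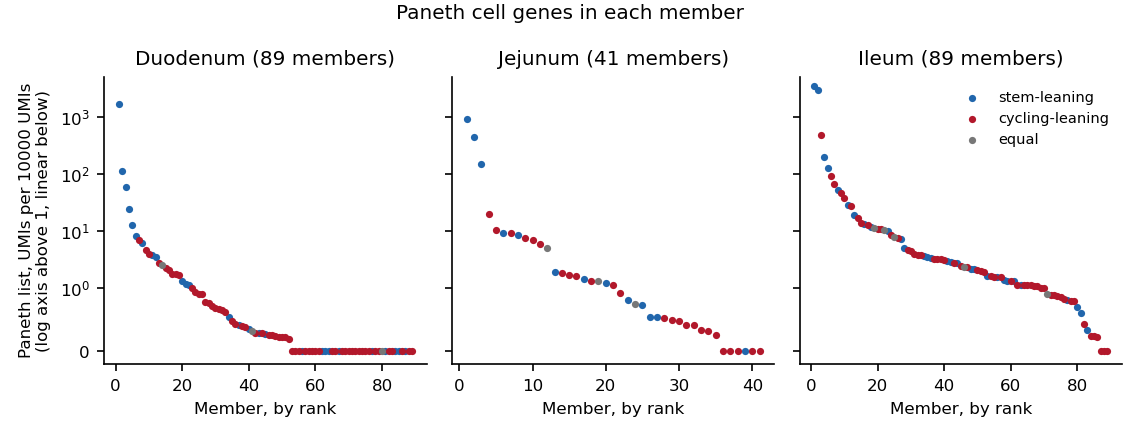
Paneth list level of each member in UMIs per 10000 UMIs, ranked within each library (vertical axis logarithmic above 1 and linear below), coloured by whether stem cell or division genes had more UMIs. Most points lie under 10, and the highest point of the duodenum holds 91.3% of that library's Paneth UMIs in members.

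Goblet and ileal enteroendocrine and tuft UMIs also came largely from few members, and B and plasma cell UMIs were spread more widely in duodenum and ileum. Goblet genes summed to 11.3, 56.0 and 65.5 in members against 206, 131 and 375, with 6 of 8 genes lower and 1, Spink4, higher (log2 fold change 0.95), and 3 members held 71.9%, 93.7% and 80.7% of their UMIs. No member lacked goblet UMIs, and the median per barcode was 2.30, 2.30 and 5.66 in members against 3.62, 3.47 and 15.9. Zg16, a goblet lectin, was found in 81, 34 and 87 members. Spink4 was not called without the jejunum (0.78). Enteroendocrine genes stood at 0.0764, 0.387 and 9.42 against 8.19, 4.31 and 9.41, and 3 ileal members held 95.1% of the ileal sum. Of the list's 8 genes 2 fell, and 7 without the ileum. The tuft list, of which 1 of 8 genes rose and 1 fell, had summed levels of 0.0255 to 0.991, and 1 ileal member held 95.8% of the ileal sum. B and plasma cell genes, of which 8 of 9 had UMIs, summed to 0.964, 1.79 and 0.414 in members against 45.9, 37.3 and 11.4, and 3 members held 26.4%, 57.3% and 18.0% of these UMIs. Igkc was found in 63, 28 and 35 members. The T cell list, with 10 of 11 genes seen, had 0.0145, 0.0484 and 0.321 against 0.0553, 0.163 and 1.31, with Cd3e at 0 in members of the duodenum and the jejunum. Myeloid (6 of 8 genes seen) and mesenchymal and endothelial genes (2 of 8) reached at most 0.0558 in members. Of these 4 lists, 7 of 7, 5 of 6, 4 of 5 and 1 of 2 tested genes fell and none rose. Summed over barcodes, the leukocyte and stromal lists were thus at or below the marker-free level in every library. Single marker-free barcodes reached B and plasma cell levels of 7627, 8451 and 6584 in duodenum, jejunum and ileum. Median levels of that list per barcode were 0.676, 0.814 and 0.275 in members against 1.09, 1.14 and 0. The T cell median was 0.218 against 0 in the ileum and 0 in both groups elsewhere. Igkc was in 39.3% of ileal members against 31.3% of marker-free barcodes before thinning, and in 5.75% against 11.5% after.

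How members vary among themselves was to be asked by comparing those with stem cell genes only with those with division genes only. Only the ileum had at least 10 of each, 16 and 19, so this has no test. There, the G2/M list stood at 4.52 UMIs per 10000 in stem-marker-only and 65.4 in cycling-marker-only members, a log2 ratio of 3.86 (exact 95% interval 3.63 to 4.09, counting error only). It moved to 1.76 in barcodes of 5000 to 20000 UMIs. The S phase list was alike, at 11.5 and 10.8, while the stem cell list stood at 60.9 and 4.91. These classes were set by the rule genes, so genes that go with them had to follow.

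A wider division, added after the data were seen, took each member by which kind of gene had more UMIs. Stem-leaning members numbered 27, 13 and 30, and cycling-leaning members 59, 25 and 54, with 3, 3 and 5 equal. Between these groups 7517 genes were tested, and 322 (4.28%) were higher and 344 (4.58%) lower in cycling-leaning members. Without the ileum the counts were 194 and 163, and without the library block 161 and 134. The groups were cut on the 5 genes, so genes that go with them had to follow, and scaling left 48.4% of the calls higher, against 64.2% without it.

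Mitotic genes set the 2 groups apart and replication genes mostly did not. The cut set Mki67 and Top2a against Lgr5, Ascl2 and Smoc2, so genes that go with either set were bound to differ. Of 33 G2/M genes 32 were higher in cycling-leaning members, with a median log2 fold change of 3.48 against -0.01 over all genes tested, and Knstrn, a kinetochore protein, was not called (adjusted p = 0.0812). Of 30 S phase genes 4 were higher, Tyms, Rrm1, Rrm2 and Cdc45, and 1, Mcm2, was lower, with a median of 0.13. Of these, Tyms was not called without the ileum, Rrm1 without the jejunum or ileum, Mcm2 without the duodenum or jejunum and Cdc45 without any 1 library (log2 fold changes 0.57, 0.76 and 0.60, -0.44 and -0.74, and 1.20 to 1.21). DESeq2 called none of the 30, against 30 of the 33 G2/M genes. Cdk1 had 0.254, 0.363 and 0.116 in stem-leaning members of duodenum, jejunum and ileum and 1.61, 1.28 and 2.02 in cycling-leaning ones, a log2 fold change of 2.80. Mcm5 had 0.774, 0.636 and 0.916 against 0.711, 0.689 and 1.03 (-0.07, adjusted p = 0.871), which overlapped. Nusap1, a spindle protein, was at 0 in stem-leaning members of each library and at 1.05, 0.591 and 1.14 in cycling-leaning ones.

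At equal depth the pattern held per barcode, as a description of groups cut on the rule genes. With 2000 UMIs each, at least 5 G2/M UMIs were found in 2 of 27, 3 of 13 and 2 of 30 stem-leaning members and in 40 of 59, 13 of 25 and 34 of 52 cycling-leaning ones. The median count of S phase UMIs was 3, 3 and 3 in stem-leaning and 3, 2 and 4 in cycling-leaning members. In marker-free barcodes 0.054%, 0.026% and 0.020% had at least 5 S phase UMIs and 0.351%, 0.210% and 1.29% at least 5 G2/M UMIs. Of all thinned members, 7 of duodenum, 0 of jejunum and 2 of ileum had no UMI of either list.

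**Figure D3:**
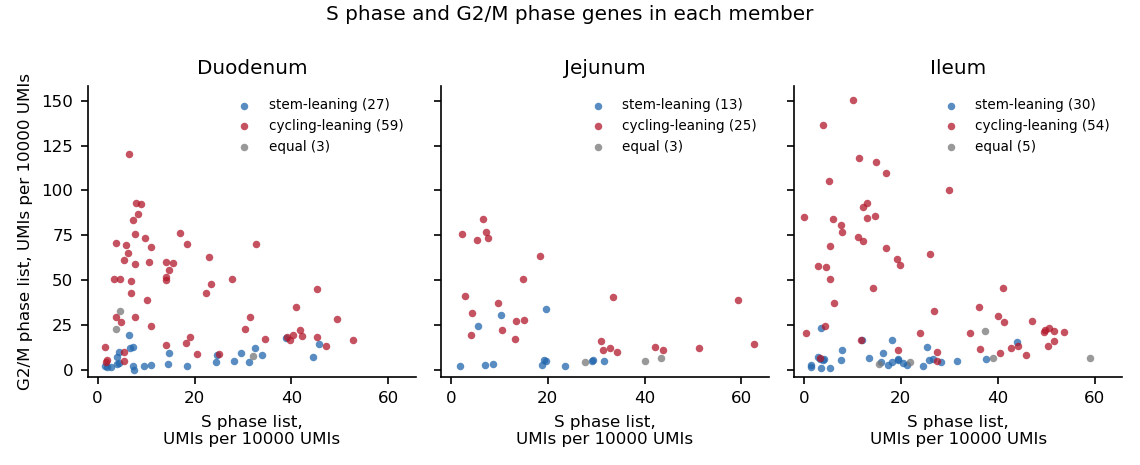
Level of the S phase list (horizontal) and the G2/M list (vertical) in UMIs per 10000 UMIs, 1 point per member, for the 3 libraries. Stem-leaning members lie along the bottom over most of the S phase range, and members high in G2/M genes are cycling-leaning.

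Most stem cell genes were lower in cycling-leaning members, to which the cut on Lgr5, Ascl2 and Smoc2 was bound to lead, and most Wnt genes were not called. Of 16 stem cell genes tested 12 fell and none rose, with a median of -1.30. Olfm4 had 44.4, 64.9 and 45.8 in stem-leaning members against 12.6, 11.3 and 11.9, a log2 fold change of -2.21 (adjusted p = 1.18e-06). Of 15 Wnt genes 6 fell, among them Axin2 (-1.33), Sox9 (-1.47), Cd44 (-1.57) and Sp5 (-2.50), Fzd5, a Wnt receptor, rose by 0.99 and 8 were not called. Lrig1, Prom1 and Bmi1 did not pass, with adjusted p of 0.0764, 0.108 and 0.954. Bmi1 had 0.0726, 0.121 and 0.181 against 0.131, 0.180 and 0.126.

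Few nucleotide and ribosome biogenesis genes were called between the 2 groups, whereas most ribosomal protein genes were. Of 19 nucleotide synthesis genes Tk1 rose by 1.83 and Impdh2 fell by 0.52 (not called without any 1 library, at -0.47 to -0.59), and of 20 ribosome biogenesis genes Npm1 alone was called, lower by 0.65. Ribosomal protein genes summed to 2582, 2669 and 2597 per 10000 in stem-leaning members and to 2022, 1819 and 1992 in cycling-leaning ones, and 74 of 82 fell, by a median of 0.54. Without the ileum 33 fell. Of the 13 mitochondrial genes 8 rose, and 2 without the jejunum and 0 without the ileum. With barcodes of at most 20% mitochondrial UMIs 0 rose. The median mitochondrial share was 14.0% in cycling-leaning and 8.85% in stem-leaning members. Of 16 chromatin genes 9 rose, led by H2afx (2.32), a histone variant, and Smc2 (2.17), a condensin subunit. Of 9 inhibitors Cdkn2d rose by 2.96, and Btg1 and Btg2 fell, the latter not called without the ileum (-0.49). None of 12 BMP and growth factor genes was called by edgeR or DESeq2, with 2 lower at an unadjusted p under 0.05, and of 5 Notch genes Foxa3, a factor of secretory cells, fell by 1.64.

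Differentiation genes moved in several directions. Genes of the enterocyte list that were higher in cycling-leaning members included Sis (1.52), a disaccharidase, and Mttp (0.75), which loads lipid onto lipoproteins, and Apoa1 (-0.64) and Apoa4 (-0.83) were lower. The calls of Apoa1 and Apoa4 were lost without the duodenum (-0.39 and -0.51) or the jejunum (-0.62 and -0.80). Dmbt1 rose by 1.75, from 7.95, 3.09 and 0.374 to 15.5, 10.4 and 3.94, and Cd74 fell by 2.23, from 0.194, 1.54 and 3.1 to 0.0876, 0.148 and 0.785. Of 7 goblet genes edgeR called 4 higher and DESeq2 1. Zg16 (2.47) had 0.956, 0.787 and 2.08 against 1.60, 14.9 and 15.8, and 1 member held 82.6% of its jejunal and 47.9% of its ileal UMIs. Summed over the list, the duodenum went the other way, with 27.1 in stem-leaning and 4.40 in cycling-leaning members. All 9 Paneth genes were lower, by a median of 4.39, and the lowest genes beyond the lists were AY761184, Defa36, Gm14851 and Defa29, defensins or their relatives. As given above, Paneth UMIs came from few barcodes. Of members with at least 100 Paneth UMIs per 10000, 2 of 2, 3 of 3 and 4 of 5 in duodenum, jejunum and ileum were stem-leaning. With members of at least 10 left out, a removal made by the same list, 2 of the 9 genes were lower.

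**Figure D4:**
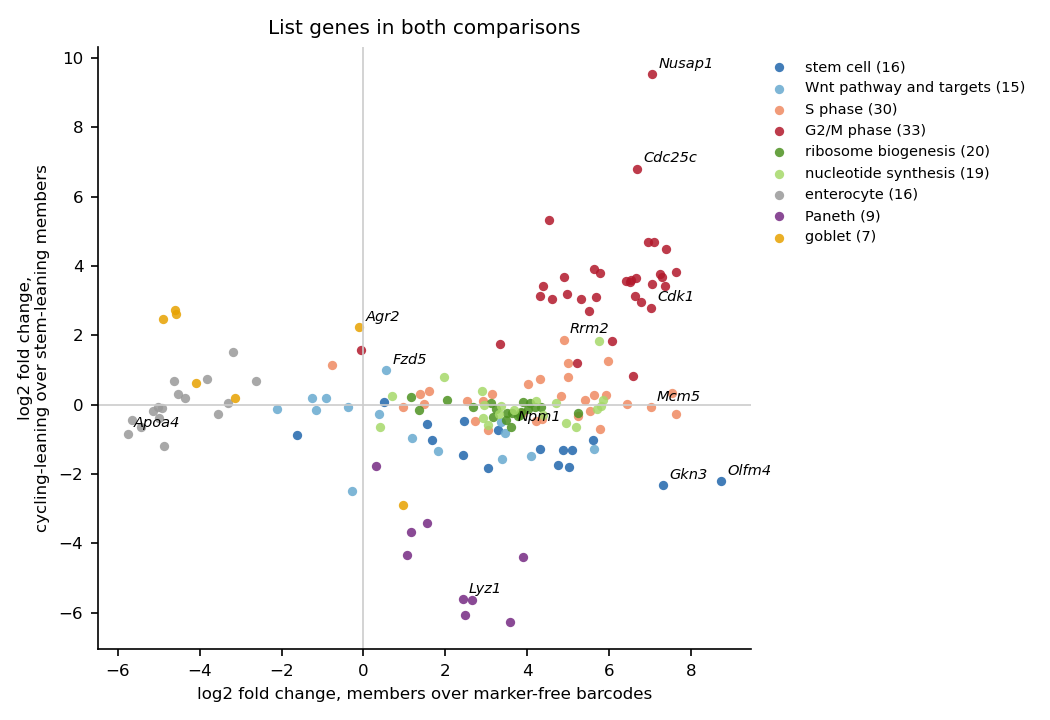
Log2 fold change of list genes in members over marker-free barcodes (horizontal) and in cycling-leaning over stem-leaning members (vertical), coloured by list. G2/M genes lie high on both axes, most S phase genes lie near 0 on the vertical one, and the fitted values of Nusap1 and Cdc25c on that axis have no size of their own, since stem-leaning members held no UMI of them. Both axes use the same members.

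Members also carried the identity of their segment. A gene was counted as different between duodenum and ileum where its summed levels differed at least 4-fold and the 95% Poisson intervals were apart, which is a description of 2 libraries and no test. Of 10361 genes with at least 10 UMIs in these members, 112 (1.08%) were higher in the duodenum and 360 (3.47%) in the ileum. Among 272 genes of the lists, 11 and 46 were. None lay in the Wnt, S phase, G2/M, chromatin, inhibitor, nucleotide, ribosome biogenesis or BMP lists, and in the stem cell list 1 did. This was Gkn3, a gastrokine, with 1.04 in duodenum, 0.571 in jejunum and 0.0512 in ileum, found in 52, 13 and 5 members. Soat1, which esterifies cholesterol for storage, went from 0.840 to 0.533 and 0.261.

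Transcription factors of position were among the genes that differed, with 3 of 15 higher in the duodenum and 6 in the ileum. Onecut2 stood at 2.73, 0.988 and 0.00931 in duodenum, jejunum and ileum and was found in 88 of 89 duodenal members. Gata4, a factor of the proximal intestine, had 0.662, 0.465 and 0.0419, and Pdx1, a duodenal and pancreatic factor, 0.236 and no UMI in the other segments, at least 16.9-fold higher in the duodenum than in the ileum. In the other direction Osr2 had 0.0473, 0.475 and 0.670. Hoxb9 had 0.703 in the ileum and no UMI elsewhere, at least 64.4-fold above the duodenum, and was found in 39 ileal members. Its ileal level in marker-free barcodes was 0.158. Bounds take 3 UMIs in the library at 0. Hoxb6, Hoxb7 and Hoxb8 were likewise seen in 23, 28 and 22 ileal members and in at most 1 of the duodenum, and 36.7% of the Hoxb8 UMIs came from 1 member. Against marker-free barcodes, 10 of the 15 segment factors could be tested. Of these 7 fell and 1 rose, against 34.6% lower and 27.6% higher of all genes tested. Their median log2 fold change was -0.95, and -0.24 without scaling. Gata4, Onecut2 and Osr2, which were among the lower ones, were not called without scaling factors. Gata4 was also not called without the jejunum (-0.97), nor Onecut2 (-0.71) and Osr2 (-0.58) without the ileum. The factor that rose was Cdx1, a gut factor (log2 fold change 0.90), with 1.23, 1.25 and 2.11 in members, while Cdx2, its relative, had 1.5, 1.25 and 1.69.

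**Figure D5:**
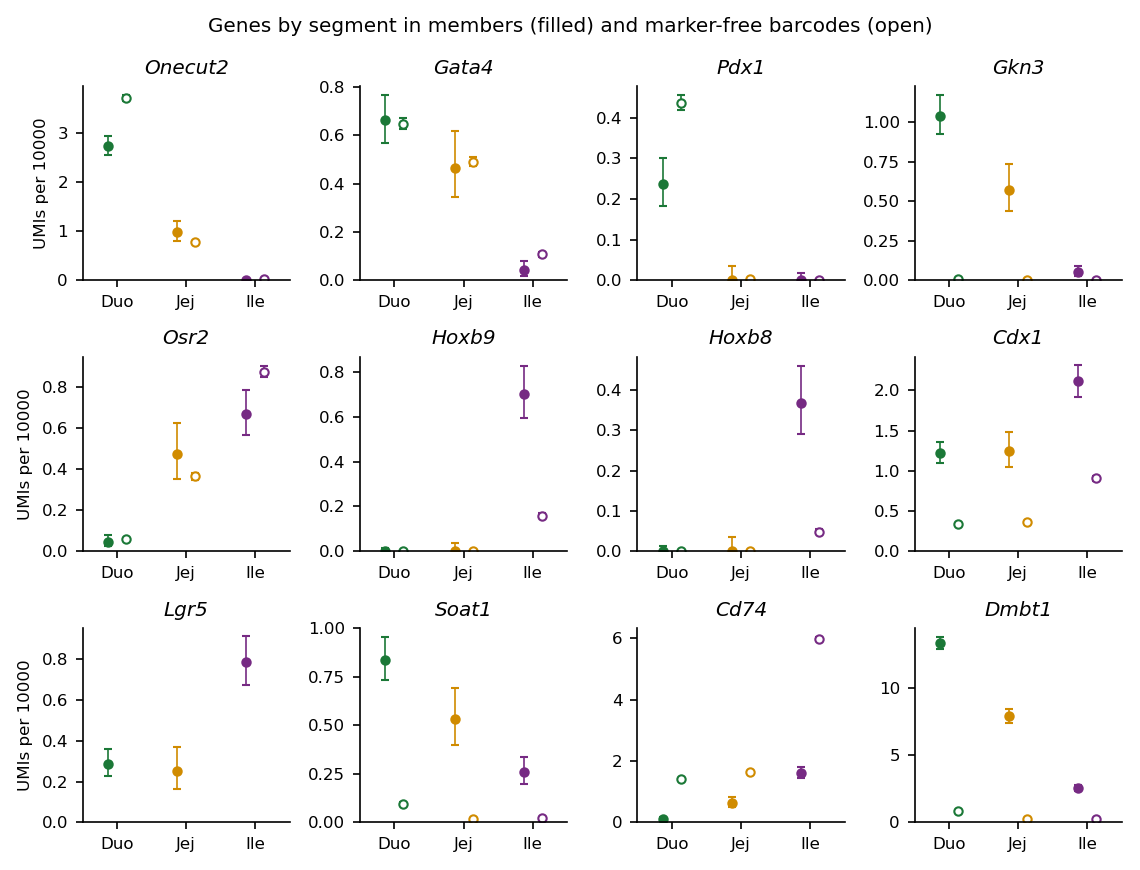
Level of 12 genes in UMIs per 10000 (linear axes from 0) in members (filled) and marker-free barcodes (open) of duodenum (Duo), jejunum (Jej) and ileum (Ile), with exact 95% Poisson intervals. Onecut2, Gata4, Pdx1 and Gkn3 fall from duodenum to ileum and Hoxb9 and Hoxb8 are seen in the ileum, where members lie above marker-free barcodes. Lgr5 has no open point, since marker-free barcodes were chosen to lack it.

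Genes of segment function also differed between the segments, and what part free RNA has in their levels was not tested. Fabp6, the ileal bile acid binding protein, had 16.0 UMIs per 10000 in ileal members, of which 87 held it, against 0.0109 and 0.0387 in duodenum and jejunum, and 195 in ileal marker-free barcodes. Reg1, a secreted lectin, had 12.1, 0.930 and 0.0512, and S100g, the calcium carrier calbindin-D9k, 3.24, 0.107 and 0.135. In duodenal marker-free barcodes these 2 genes stood at 45.55 and 35.6, and 29.2% of the Reg1 UMIs of duodenal members came from 1 member. Fabp2, a fatty acid binding protein, had 3.95, 7.82 and 17.7, against 31.6 and 287 in marker-free barcodes of duodenum and ileum. Bex1 was found in 64 ileal members, at 2.02, against 0.00364 in the duodenum and 0.0187 in ileal marker-free barcodes. MHC class II genes were higher in the ileum for all 6 with enough UMIs, with Cd74 at 12.7-fold. Of the 46 list genes higher in the ileum, 26 belong to the goblet, Paneth, tuft and enteroendocrine lists, whose UMIs came from few members. In the same way 1 member held all Gkn2 and 99.5% of the Tff1 UMIs of the duodenum.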

How the data were processed

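The authors deposited whole UMI counts per gene and barcode from Cell Ranger 3.0.2 for barcodes called as cells, on the mm10 genome, without normalization or further cell filters. These libraries summed to 98518847 (duodenum), 87656078 (jejunum) and 78074516 (ileum) UMIs over 31053 genes. Members, gene lists and tests were chosen with earlier results of these data known. Counts were summed per library and group and tested with edgeR 4.0.16 in R 4.3.3 (genes kept by filterByExpr, TMM factors, a block for library in the quasi-likelihood fit, p-values adjusted after Benjamini and Hochberg over all genes tested, threshold 0.05), leaving out the 5 rule genes, Epcam and Ptprc. The 3 sums a group come from 3 segments, each a pool. With the library block, p-values measure how the difference between groups varies across these segments. They do not measure variation between animals. Named genes came from 22 lists, or were the 10 highest and 10 lowest called genes with at least 1 UMI per 10000 in the higher group and 1 direction in all libraries. Genes named by segment were chosen after their values were seen. Thinning drew UMIs once with a fixed seed. Promoters came from RefSeq (27025 symbols). The test was checked on simulated data. Alternatives covered scaling, gene filter, DESeq2 1.42.0, block, library, depth, mitochondrial limit and marker sum. Same-numbered sums are the same pooled cells of a library, which is where the pairing comes from.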

Additional observations from a re-analysis of the deposited data

Results flagged for a closer look

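For some genes the members lay above the marker-free barcodes in 1 segment and below them in another, with Poisson intervals apart in both, which was not tested since each segment has 1 library. Sp5, a Wnt target, stood at 0.205 UMIs per 10000 in ileal members against 0.0270, but at 0.120 against 0.276 in the duodenum. Btg2, an antiproliferative gene, was higher in members of the duodenum (3.25 against 2.44) and lower in the other segments. The Notch ligand Dll1 was higher in the jejunum alone (0.349 against 0.195). Onecut2 was higher in members of the jejunum (0.988 against 0.773) and lower in the duodenum (2.73 against 3.70). Agr2, a goblet cell chaperone, was higher in the jejunum (14.2 against 1.43) and ileum and lower in the duodenum, and 49.8% of its jejunal UMIs came from 1 member.

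Barcodes over 50000 UMIs were outside the report's comparisons, and 83 of them would otherwise have met the rule.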

How the results depend on the processing

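The comparison of members with marker-free barcodes gave 2174 higher genes in barcodes of 5000 to 20000 UMIs, 1974 higher and 2721 lower genes after thinning to 2000 UMIs, 1619 higher genes without barcodes holding UMIs of other cell types' lists, and 2508 lower genes without scaling factors. The other types meant here are T cells, B and plasma cells, myeloid cells, and mesenchyme and endothelium. Goblet, Paneth, tuft and enteroendocrine UMIs were allowed. Only 8, 3 and 15 members of duodenum, jejunum and ileum held no UMI of those other types' lists. Leaving out 1 library gave 2945 to 3256 higher and 3374 to 4019 lower genes. Of the 7810 calls, 5978 were also called in the same direction without scaling and 330 had the opposite sign. For cycling- against stem-leaning members, no filter on low genes gave 559 higher and 566 lower genes, DESeq2 147 and 153, thinning 53 and 72, and leaving out 1 library 194 to 338 and 163 to 365. Without the replicate block, which pairs the sums of each library, 161 were higher and 134 lower. In the comparison with marker-free barcodes that fit kept 6957 of the 7810 calls. Of the named genes, 14 of 82 lost their call without the block there (among them Hopx, Fzd5, Mcm2, Ccne2, Btg2, Dll1, Spdef, Cdx1, Gata4, Onecut2, Osr2, Spink4 and Lyz1), as did 22 of 79 between the leaning groups.

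The share of members at no upper limit on UMIs was 3.04%, 1.44% and 2.13% in duodenum, jejunum and ileum, at most 20% mitochondrial UMIs gave 6.97% and 2.98% in the first and second of these, and 200 to 6000 genes gave 1.73% in the duodenum. Cdk1 was found in 5.62% of duodenal and 7.87% of ileal members at 800 UMIs, where depth limits detection. The ileal log2 ratio of G2/M genes was 1.76 in barcodes of 5000 to 20000 UMIs, 3.27 after thinning, 2.63 at up to 30000 UMIs and 2.99 without other types' UMIs. The first of these rested on 5 stem-marker-only and 6 cycling-marker-only barcodes, and the last on 2 and 3. The causes were not tested.

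Among named genes, the sign turned for Bmpr1a without scaling (0.10), for Zg16 (1.28) and Fcgbp (2.35) with secretory marker-free barcodes left out, for Spink4 in barcodes of 5000 to 20000 UMIs (-1.13), without other types' UMIs (-2.89), at up to 30000 UMIs (-1.18) and with Paneth-rich members left out (-1.86), and for Lyz1 (-2.20), Defa24 (-3.14) and Itln1 (-2.90) in the last of these. That setting removed members, and no marker-free barcodes, by their Paneth list level, so the signs of the last 3 genes, which are on that list, follow from the removal. Leaving out secretory marker-free barcodes removed no members. It kept 3049, 2986 and 779 marker-free barcodes of duodenum, jejunum and ileum, by their goblet, Paneth, tuft and enteroendocrine UMIs. The turn of Zg16 and Fcgbp, which are on the goblet list, thus follows from that removal. Between leaning groups the sign turned for Apoa1 at a marker sum of at least 6 (0.54) and for Apoa1 (1.79) and Apoa4 (1.79) in marker-only members of 2 libraries. Of 1299 values for 82 named genes, 1190 counted as unchanged in the comparison with marker-free barcodes, and 921 of 1025 did between the leaning groups. A gene called as reported counted so where it kept its direction and its call. A gene not called as reported counted so where it stayed uncalled, and also where its sign turned. The turns of sign given above are thus only those of genes called as reported. Barcodes of 5000 to 20000 UMIs and barcodes without other types' UMIs were too few for the leaning groups, and leaving out secretory marker-free barcodes does not touch them. With 1 library per segment, no segment difference has an error beyond counting.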

Other observations

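Barcodes with 1 to 3 UMIs of the 5 genes, which entered no comparison, lay between the groups for the ribosomal protein, stem cell and enterocyte lists. Their ribosomal protein genes summed to 749, 605 and 893 UMIs per 10000 in duodenum, jejunum and ileum, against 2196, 2107 and 2222 in members and 209, 189 and 381 in marker-free barcodes. Their stem cell list stood at 4.05, 2.30 and 3.37 and their enterocyte list at 367, 598 and 403. The Paneth list was higher in them than in either group in the duodenum and the jejunum, at 153 and 188, against 33.7 and 22.9 in members, and was 83.4 in the ileum, against 86.7. The B and plasma cell list was also highest in them, at 75.5, 117 and 56.5.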
